A study of Mus musculus with 12 samples.

Results

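The genes described here are App, Atp8b4, Epas1, Pdlim4, Lrrc75b, Pxylp1, Vipr1 and Tdrp, 8 of the 18193 genes measured, which were picked because their RNA was much lower in regulatory T cells (Treg) than in conventional T cells (Tconv) in 1 or both of the strains studied. Every probe set that the platform annotation assigns to exactly 1 of these genes was taken, which gave 16 of 45037 probe sets. The arrays held 4 groups of 3: CD4+CD25- Tconv and CD4+CD25+ Treg from spleens of NOD mice, the strain that develops autoimmune diabetes, and the same 2 populations from B6.H2g7 mice, which are B6 mice congenic for the class II MHC haplotype H2g7. Animals of all groups were 6 weeks old, RNA of 3 mice was pooled for each array, and it was amplified in 2 rounds. Cells were enriched magnetically by CD25 and then sorted in 2 rounds as CD4+ cells lacking CD8a, CD11b, CD69 and B220. The Treg gate took the cells with high CD25. After the sort, Foxp3 staining found 94%, 96% and 96% positive cells in the B6.H2g7 Treg pools and 89%, 95% and 95% in the NOD Treg pools. For Tconv the labels give no such figure.

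Treg cells restrain immune responses and depend on the transcription factor Foxp3, which activates some genes and keeps others low relative to Tconv. The 8 genes belong to unrelated pathways. Vipr1 encodes VPAC1, a G protein-coupled receptor for the neuropeptides VIP and PACAP that raises cyclic AMP. App encodes the amyloid precursor protein, a membrane protein cut by secretases, and Atp8b4 a member of the P4-ATPases, a family that moves phospholipids between the leaflets of membranes. Pdlim4 encodes a PDZ and LIM domain protein associated with the actin cytoskeleton. Epas1 encodes HIF-2alpha, an oxygen-sensitive transcription factor that is hydroxylated by prolyl hydroxylases, recognised by VHL for degradation, and pairs with ARNT when stable. Pxylp1 encodes a phosphatase that removes the phosphate from the xylose of the glycosaminoglycan linkage region. Lrrc75b encodes a leucine-rich repeat protein, and Tdrp is named after its part in testis development.

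Promoter sequences are shown for 3 of the genes because the start regions at hand were of unlike composition: Vipr1 and Pdlim4 stand for the GC-rich ones and Atp8b4 for the exception. RefSeq sequences (GRCm38.p6) from 250 bases before to 50 bases after the start were at hand for 5 of the 8 genes. For Atp8b4, App and Pxylp1 the annotated gene begins further upstream than the start used for this window. In capitals are the GC box GGGCGG and the AP-1 motif TGACTCA, each on either strand.
Vipr1 promoter, chr9:121642466-121642765, plus strand: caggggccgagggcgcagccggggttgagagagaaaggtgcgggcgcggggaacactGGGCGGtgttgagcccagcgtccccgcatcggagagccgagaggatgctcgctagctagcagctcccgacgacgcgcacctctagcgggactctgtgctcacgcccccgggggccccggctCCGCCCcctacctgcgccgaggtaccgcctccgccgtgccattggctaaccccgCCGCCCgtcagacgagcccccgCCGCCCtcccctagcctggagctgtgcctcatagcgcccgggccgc
Pdlim4 promoter, chr11:54068968-54069267, minus strand: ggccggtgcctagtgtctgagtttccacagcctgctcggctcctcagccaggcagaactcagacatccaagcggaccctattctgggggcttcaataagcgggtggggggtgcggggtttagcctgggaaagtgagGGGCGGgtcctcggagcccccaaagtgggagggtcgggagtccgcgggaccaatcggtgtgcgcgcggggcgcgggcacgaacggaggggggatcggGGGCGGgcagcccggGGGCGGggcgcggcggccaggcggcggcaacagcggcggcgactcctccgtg
Atp8b4 promoter, chr2:126491504-126491803, minus strand: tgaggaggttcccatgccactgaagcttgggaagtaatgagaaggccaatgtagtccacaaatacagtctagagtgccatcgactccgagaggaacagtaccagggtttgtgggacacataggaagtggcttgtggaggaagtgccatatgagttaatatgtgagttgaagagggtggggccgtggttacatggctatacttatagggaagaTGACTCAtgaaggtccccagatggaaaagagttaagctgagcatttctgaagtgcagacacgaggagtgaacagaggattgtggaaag
The promoters of Vipr1, Pdlim4, App and Pxylp1 had GC contents of 73.7%, 71.7%, 71% and 74.3% and held 35, 31, 30 and 38 CpG dinucleotides, whereas that of Atp8b4 had 48% GC and 4 CpG. The medians over 32851 RefSeq promoters of the same length were 52.7% and 7. GC boxes numbered 4 in Vipr1, 3 in Pdlim4 and 1 each in App and Pxylp1, with 0 in Atp8b4; 35.7% of all promoters hold at least 1. Atp8b4 held the AP-1 motif once, as do 5.2% of promoters. The letters of the forkhead motif TGTTTAC and of TATAAA, present in 3.65% and 13.6% of promoters, did not occur in any of these 5 windows. A match is a description of the letters and not a binding site. The motifs were chosen after the sequences were seen.

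Levels below are log2 of the intensity that the authors obtained by RMA, an algorithm that corrects, normalizes and summarises the probes of a set. A group mean under 5.28 is called dim, because 25% of all probe sets have a mean below that value, and no fold is given from or to a dim mean, since the size of such a change is uncertain. Unless another is named, a gene is given by its probe set of highest mean. Since the genes were chosen for their difference between Treg and Tconv, that difference is described here without a test. Arrays had median intensities between 83.9 and 88.6. Foxp3 and Il2ra, which encodes CD25, followed the labels, with mean log2 levels of 11.00 and 11.02 in B6.H2g7 Treg against 5.68 and 5.69 in Tconv, and of 11.05 and 10.81 against 5.91 and 5.74 in NOD. Of the other T cell markers, Cd4 was lower in Treg (log2 difference averaged over strains -0.40, limma adjusted p = 0.0262), while Cd3g (-0.50, adjusted p = 0.0842) and Cd3e (-0.10, adjusted p = 0.828) did not pass. In bulk samples such as these, fewer cells of a kind and less RNA per cell cannot be told apart.

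Vipr1 (1455555_at), the neuropeptide receptor, had log2 levels of 9.73, 9.31 and 8.95 in the 3 arrays of B6.H2g7 Tconv and of 6.29, 6.78 and 7.11 in B6.H2g7 Treg. In NOD the levels were 9.99, 9.51 and 9.07 in Tconv and 6.61, 6.79 and 6.12 in Treg. All 6 Treg arrays lay below all 6 Tconv arrays, and the array numbered 1 was the highest of the Tconv group in both strains. The mean log2 level differed, Treg minus Tconv, by -2.60 ± 0.28 (SE of the fit, n = 3 per group) in B6.H2g7 and by -3.02 ± 0.28 in NOD, so that Treg intensity stood at 16.5% and 12.3% of that of Tconv. Vipr1 had the widest standard error of the 8 genes. The actin control difference between 3' and 5' probe sets, a measure that becomes larger with shortened RNA, was 3.84, 3.67 and 4.43 in the B6.H2g7 Tconv arrays and 2.97, 3.79 and 4.25 in the NOD Tconv arrays, on the log2 scale. In Treg it was 2.66, 4.26 and 4.58 in B6.H2g7 and 3.29, 4.70 and 4.48 in NOD. The array with the lowest actin difference had the highest Vipr1 level in NOD Tconv and the lowest in B6.H2g7 Treg. In B6.H2g7 Tconv and in NOD Treg the array with the lowest actin difference had the middle Vipr1 level. With this difference as a covariate the changes of Vipr1 were -2.60 and -3.01. Without the 4 arrays numbered replicate 1 they were -2.18 and -2.83. The other Vipr1 probe set, 1423004_at, was dim in all groups but NOD Treg, with a highest group mean of 5.41, and its changes were 0.11 ± 0.10 and 0.16 ± 0.10.

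App (1427442_a_at) stood at log2 levels of 10.74, 10.78 and 10.37 in B6.H2g7 Tconv and of 6.81, 7.53 and 7.02 in B6.H2g7 Treg. The NOD arrays gave 10.64, 10.89 and 10.79 in Tconv and 7.56, 7.64 and 7.54 in Treg. The Tconv arrays of the strains overlapped, while each NOD Treg array lay above each B6.H2g7 Treg array. How many of all genes show such an order between strains was not counted, so nothing is read from it here or for the genes below. The log2 difference, Treg minus Tconv, was -3.51 ± 0.17 (SE) in B6.H2g7 and -3.19 ± 0.17 in NOD, which left 8.80% and 10.9% of the Tconv intensity. The 3 other App probe sets did not show a change of this size. For 1420621_a_at the log2 differences were -0.68 ± 0.09 and -0.78 ± 0.09, from Tconv means of 5.68 and 5.87 to dim Treg means. Both 1438373_at and 1438374_x_at were dim in all 4 groups, with differences of 0.07 and 0.00 in B6.H2g7 and of 0.20 and 0.13 in NOD.

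Atp8b4 (1439814_at), the P4-ATPase gene, had log2 levels of 9.14, 9.08 and 9.37 in B6.H2g7 Tconv and of 5.35, 5.93 and 5.95 in B6.H2g7 Treg. Levels in NOD were 8.0, 8.53 and 8.85 in Tconv and 5.29, 5.39 and 5.83 in Treg. Each NOD Tconv array lay below each B6.H2g7 Tconv array, and the Treg arrays of the strains overlapped a little above the dim threshold. The log2 differences were -3.45 ± 0.22 (SE) in B6.H2g7 and -2.96 ± 0.22 in NOD, or 11.0-fold and 7.78-fold lower intensity in Treg. The second probe set, 1445522_at, had log2 differences of -0.65 ± 0.16 and -0.26 ± 0.16, and its NOD groups overlapped.

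Pdlim4 (1417928_at), the cytoskeletal adaptor, was at log2 levels of 8.14, 8.01 and 8.67 in B6.H2g7 Tconv and of 5.22, 5.31 and 5.52 in B6.H2g7 Treg. In NOD the levels were 9.08, 8.81 and 9.25 in Tconv and 5.37, 4.71 and 5.21 in Treg. The NOD Tconv arrays all lay above the B6.H2g7 Tconv arrays, and Treg levels were near or under the dim threshold in both strains. The log2 difference was -2.93 ± 0.20 (SE) in B6.H2g7, a 7.61-fold lower intensity, and -3.95 ± 0.20 in NOD, where the Treg mean of 5.10 was dim.

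Epas1 (1435436_at), the HIF-2alpha gene, had log2 levels of 10.07, 9.67 and 9.34 in B6.H2g7 Tconv and of 6.94, 6.70 and 6.64 in B6.H2g7 Treg. In NOD the levels were 9.28, 9.13 and 9.48 in Tconv and 7.34, 6.95 and 7.34 in Treg. NOD Treg arrays lay above B6.H2g7 Treg arrays without overlap, and NOD Tconv arrays overlapped those of B6.H2g7. Treg held 13.1% of the Tconv intensity in B6.H2g7 (log2 difference -2.93 ± 0.18, SE) and 23.6% in NOD (-2.09 ± 0.18). The other Epas1 probe set, 1449888_at, had group means between 5.64 and 5.90 and differences of -0.26 ± 0.12 and -0.07 ± 0.12.

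Pxylp1, the xylose phosphatase gene, was covered by 3 probe sets. The first, 1456735_x_at, had log2 levels of 10.05, 10.21 and 9.79 in B6.H2g7 Tconv and of 7.20, 7.35 and 7.19 in B6.H2g7 Treg. Those of NOD were 9.87, 10.16 and 10.39 in Tconv and 7.61, 7.45 and 7.68 in Treg. Treg arrays were tightly grouped, with NOD above B6.H2g7. The log2 differences were -2.77 ± 0.14 (SE) in B6.H2g7 and -2.56 ± 0.14 in NOD, which left 14.7% and 17% of the Tconv intensity. For 1429390_at the differences were of like size, at -2.17 ± 0.24 and -2.26 ± 0.24. For 1429391_at they were -0.41 ± 0.10 and -0.33 ± 0.10. Among the 5 genes with several probe sets, Pxylp1 was thus the 1 gene with a second set lower in Treg by more than 1 on the log2 scale in both strains.

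Lrrc75b (1456878_at) had log2 levels of 7.89, 7.71 and 8.05 in B6.H2g7 Tconv and of 4.83, 4.20 and 4.01 in B6.H2g7 Treg. In NOD the levels were 9.27, 9.01 and 9.08 in Tconv and 5.01, 4.20 and 4.35 in Treg. NOD Tconv was well above B6.H2g7 Tconv, by 1.24 ± 0.22 (SE) on the log2 scale, and all Treg arrays were under the dim threshold. The log2 differences between Treg and Tconv, -3.54 ± 0.22 in B6.H2g7 and -4.60 ± 0.22 in NOD, therefore have an uncertain size. Tdrp (1428357_at) stood at log2 levels of 10.70, 10.73 and 10.04 in B6.H2g7 Tconv and of 8.28, 8.05 and 7.78 in B6.H2g7 Treg. In NOD its levels were 10.82, 10.63 and 10.45 in Tconv and 8.21, 7.95 and 8.11 in Treg. The strains overlapped in both populations for Tdrp, with log2 differences of -2.45 ± 0.18 and -2.55 ± 0.18, or 18.2% and 17.1% of the Tconv intensity left in Treg.

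**Figure D1:**
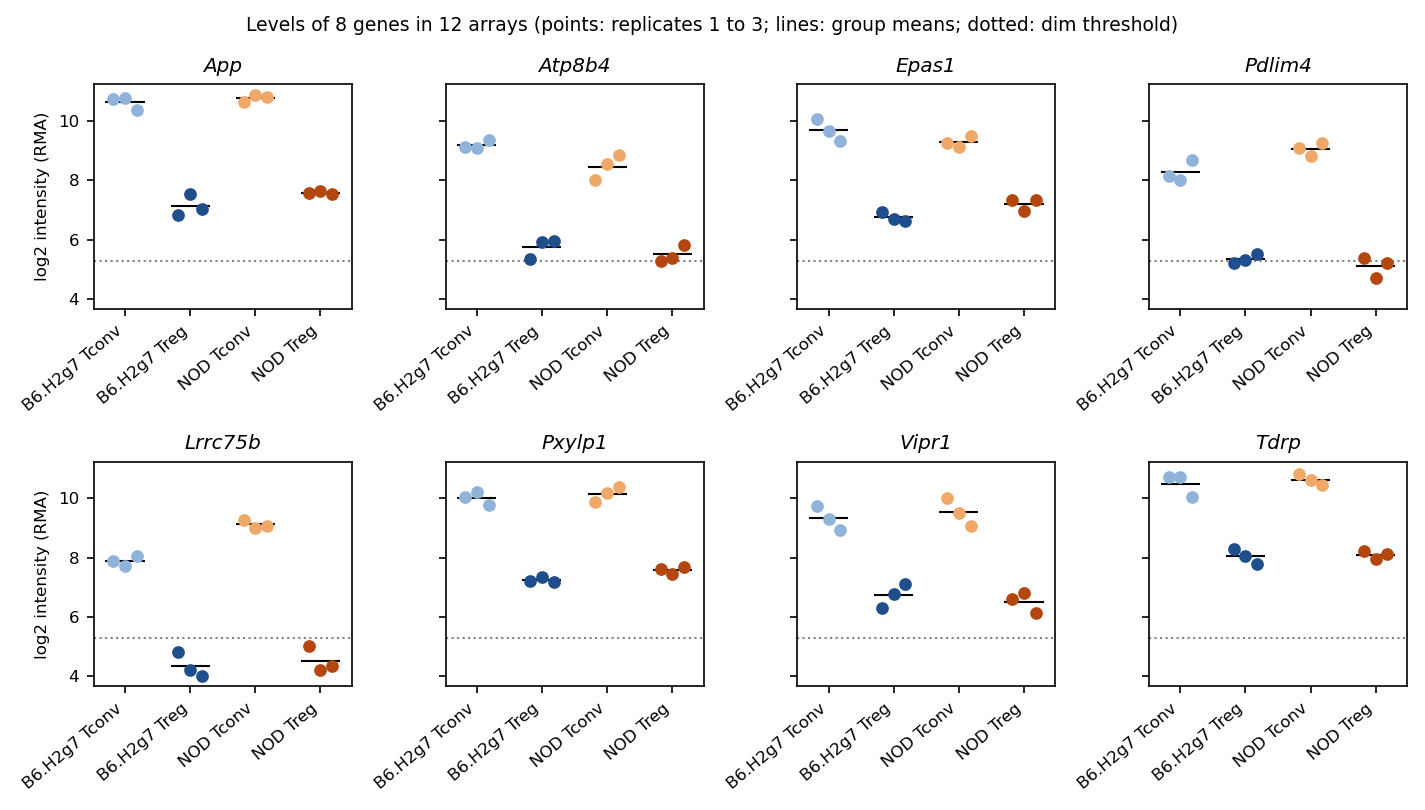
Log2 intensity (y axis) of the brightest probe set of each of the 8 genes in the 3 arrays of each group (x axis); points are replicates 1 to 3 from left to right, black lines group means, and the dotted line the dim threshold of 5.28. Treg arrays lie below Tconv arrays in every panel, and Lrrc75b and Pdlim4 reach the dim threshold in Treg.

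For the brightest probe sets of all 8 genes, every Treg array lay below every Tconv array of its strain in both strains; 2.80% of all genes had this arrangement, and the genes were chosen on these values, so nothing is read from the count. The median log2 difference over the 8 genes was -2.93 in B6.H2g7 and -2.99 in NOD, beside medians over all genes of 0.00 and -0.02. Of the other 8 probe sets, 3 (App 1420621_a_at and both further Pxylp1 sets) lay below Tconv without overlap in both strains, against 2.20% of all probe sets. Another 3 (2 of App and that of Vipr1) had a difference above 0 when averaged over strains. These sets belong to the genes chosen for this difference, so nothing is read from these counts either. In the NOD Treg array with 89% Foxp3+ cells, 3 of the 8 genes (Pdlim4, Lrrc75b and Tdrp) had their highest level of that group. In the B6.H2g7 Treg array with 94%, 3 genes (Epas1, Lrrc75b and Tdrp) did. The part of the Foxp3-negative cells in the Treg levels was not tested.

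**Figure D2:**
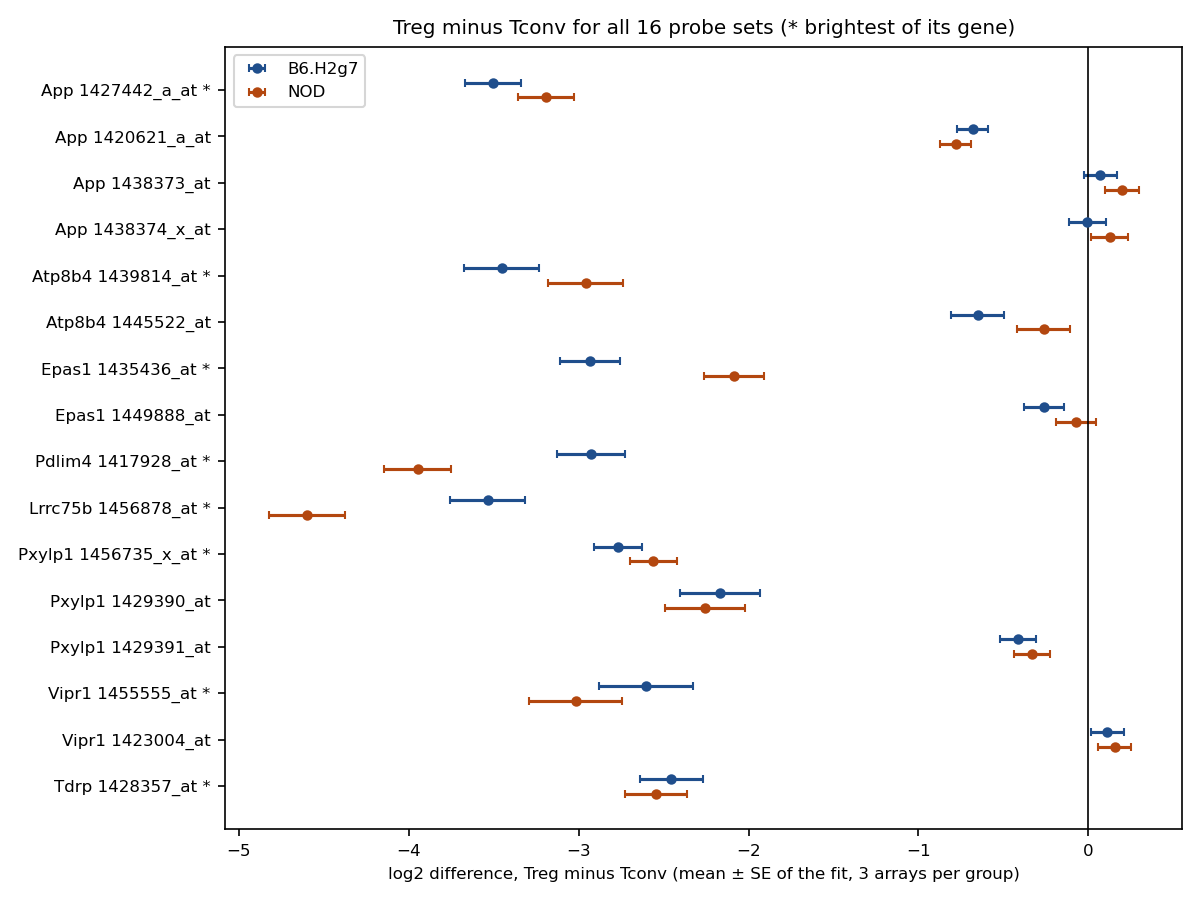
Log2 difference, Treg minus Tconv (x axis; mean ± SE of the fit, 3 arrays per group), for all 16 probe sets (y axis), in B6.H2g7 (blue) and NOD (orange); an asterisk marks the brightest set of a gene. The brightest sets lie between -2.09 and -4.60, and most other sets of App, Atp8b4, Epas1 and Vipr1 lie near 0.

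The difference between Treg and Tconv was smaller in NOD than in B6.H2g7 for 4 of the 8 genes and larger for the other 4. The series design sets the Treg to Tconv ratios of the strains against each other, and the values below are descriptions, since they are made of the differences on which the genes were picked. The NOD difference minus that of B6.H2g7 was 0.85 for Epas1 (95% interval of the fit 0.31 to 1.39). It was -1.02 for Pdlim4 (-1.63 to -0.41) and -1.06 for Lrrc75b (-1.75 to -0.38), but Treg levels of Lrrc75b were dim in both strains and those of Pdlim4 in NOD, so these values have an uncertain size. Tconv levels in NOD were higher than in B6.H2g7 by 1.24 for Lrrc75b and by 0.77 for Pdlim4. Intervals are for single genes: the limma adjusted p of these 3 genes were 0.716 to 0.874. Of the 45037 probe sets tested with limma, 2043 had an unadjusted p under 0.05 for this difference. The intervals of App (0.32, -0.19 to 0.82), Atp8b4 (0.50, -0.19 to 1.18), Pxylp1 (0.21, -0.22 to 0.64), Vipr1 (-0.42, -1.26 to 0.43) and Tdrp (-0.09, -0.65 to 0.47) included 0. The other Epas1 probe set gave 0.19 (-0.18 to 0.55).

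NOD and B6.H2g7 were then compared over both populations together. This contrast, the mean of NOD Treg and NOD Tconv minus that of B6.H2g7 Treg and Tconv, has no covariance with the Treg to Tconv difference of either strain and was tested with limma over all 45037 probe sets. Lrrc75b was higher in NOD (log2 difference 0.70 ± 0.16, SE, 6 arrays per strain, Benjamini-Hochberg adjusted p = 0.0175), and the other 15 probe sets did not pass the test. Of all probe sets, 5.50% were called in this comparison (2.73% higher in NOD, 2.77% lower), a share near the 1 in 16 called here. The Lrrc75b mean difference was 1.24 in Tconv and 0.17 in Treg, where both strains were dim. Its call was lost without B6.H2g7 Tconv replicate 2 (0.66, adjusted p = 0.0541). Over all alternatives its adjusted p ranged from 1.59e-04 to 0.0541. Probe sequences were not used here, so whether NOD sequence differs from the probes, which would alter signal without a change of RNA, was not tested for this or any other strain difference given here.

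Atp8b4 had the largest difference in the other direction, -0.48 ± 0.16 (95% interval -0.83 to -0.14, adjusted p = 0.123 by limma), at -0.73 in Tconv and -0.24 in Treg. It passed without B6.H2g7 Treg replicate 1 (-0.58, adjusted p = 0.0383) and with a covariate for the actin difference (adjusted p = 0.00226), with an adjusted p between 0.00226 and 0.264 over all alternatives. App was at 0.30 (0.05 to 0.55, adjusted p = 0.238) and passed without B6.H2g7 Treg replicate 2 (0.40, adjusted p = 0.0253; range over all alternatives 0.0253 to 0.614). The values of Pdlim4 (0.26, -0.04 to 0.57) and Pxylp1 (0.23, 0.01 to 0.44) had adjusted p of 0.502 and 0.32. Epas1 (0.03, -0.25 to 0.30), Tdrp (0.10, -0.19 to 0.38) and Vipr1 (-0.01, -0.44 to 0.41) had adjusted p of 0.988, 0.913 and 0.997. Differences of up to the bounds of these intervals are not excluded by 6 arrays per strain.

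**Figure D3:**
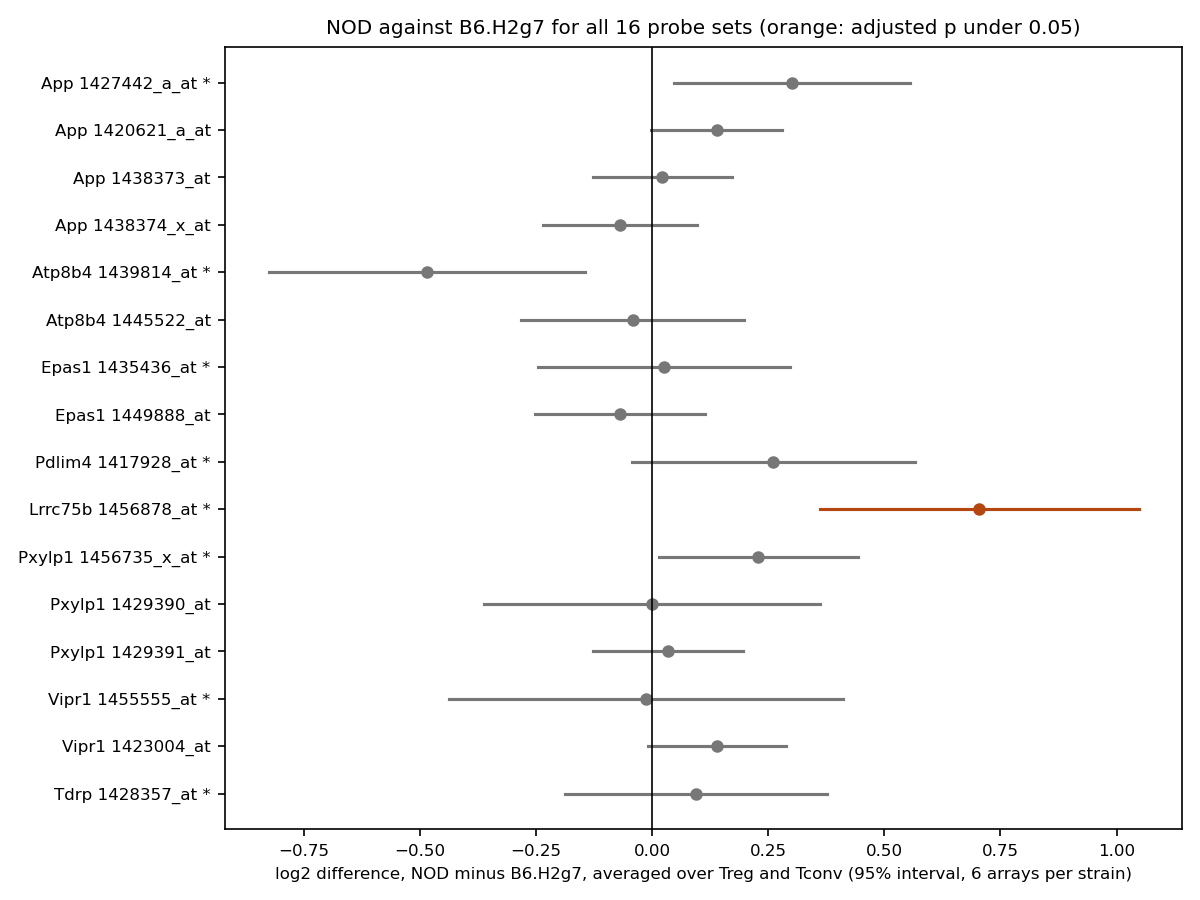
Log2 difference, NOD minus B6.H2g7, averaged over Treg and Tconv (x axis), with the 95% interval of the fit over 6 arrays per strain, for all 16 probe sets (y axis; asterisk, brightest set of a gene). Lrrc75b (orange, 0.70) passed the test at an adjusted p under 0.05, and the grey sets did not.

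The profiles of the 8 genes over the 12 arrays were compared by the root mean square difference after each gene's own mean was subtracted, on the log2 scale. The 28 pairs ranged from 0.26 for Pxylp1 and Tdrp to 1.01 for Epas1 and Lrrc75b, with a median of 0.55. Epas1 was also close to Pxylp1 (0.27) and to Tdrp (0.29), and Lrrc75b was closest to Pdlim4 (0.48). Among all genes, Arhgap29 was the nearest to Epas1 (0.21), Pxylp1 (0.20) and Tdrp (0.20). Pde3b, a cyclic AMP phosphodiesterase gene, was the nearest to Atp8b4 (0.22) and came after Il1rl2, which encodes the IL-36 receptor, for App (0.33 and 0.24). The second neighbours were Klrd1 for Atp8b4 (0.42), Slc16a5 for Epas1 (0.23), Dapl1 for Pxylp1 and Vipr1 (0.25 and 0.40) and Lypd6b for Lrrc75b (0.60). Vipr1 was nearest to Tdrp (0.40), and Pdlim4 to Lrrc75b and App (0.48 and 0.49). All distances are over the same 12 arrays and take in the Treg to Tconv difference on which the 8 genes were chosen.

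Genes that act with the 8 were compared between Treg and Tconv, averaged over strains, with limma over all probe sets (6 arrays per population). Of 102 measured relatives, 10 were higher in Treg, 9 were lower and 83 did not pass; of all genes, 4.46% were called higher and 3.03% lower, 7.50% in all. Of all probe sets the shares were 3.45%, 2.40% and 5.84%. The median log2 difference of the relatives was 0.01, beside -0.01 for all genes. The lists were chosen with earlier results of these data known, so these counts are no test against the shares of all genes.

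Of the 21 measured App relatives, the paralogs, secretases, presenilin complex and adaptors, 1 rose and 0 fell: Itm2c, a BRI family gene whose product interacts with APP, was 1.49-fold higher in Treg (log2 difference 0.58 ± 0.07, SE, adjusted p = 1.94e-04). Aplp2 (-0.03, adjusted p = 0.973), the alpha-secretase gene Adam10 (-0.04, adjusted p = 0.963), Adam17 (0.09, adjusted p = 0.766) and Psen2 (0.07, adjusted p = 0.801) did not pass. The list's median was 0.05.

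Of 18 genes of P4-ATPases, their subunits and scramblases, 3 rose and 2 fell, with a median of 0.05. The scramblase gene Plscr1 was 3.40-fold higher in Treg (1.76 ± 0.19, adjusted p = 5.38e-05), and its 2 other probe sets gave 2.0 and 2.29. Atp10d (0.54 ± 0.08, adjusted p = 0.00121) and Atp9a (0.51 ± 0.10, adjusted p = 0.00477) were higher and Atp10a (-0.65 ± 0.12, adjusted p = 0.00504) lower. The 2 other Atp9a sets did not pass (0.28 and -0.06). Atp8a1 (-0.35, adjusted p = 0.0254) did not pass when B6.H2g7 Tconv replicate 1 or 2, NOD Tconv replicate 1 or 3 or NOD Treg replicate 2 was omitted, and its adjusted p reached 0.112 over all alternatives. None of the 6 other Atp8a1 sets passed (-0.14 to 0.10), whereas 2 of 3 other Atp10a sets did (-0.47 and -0.41).

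None of the 10 other HIF subunits and regulators passed, with 2 at an unadjusted p under 0.05. Hif1a, the sister subunit of HIF-2alpha, was at 0.23 (adjusted p = 0.49), Arnt at 0.09 (adjusted p = 0.914), the prolyl hydroxylase gene Egln1 at -0.23 (adjusted p = 0.177), Vhl at 0.01 (adjusted p = 0.982) and Cited2, a competitor of HIF for its coactivator, at -0.43 (adjusted p = 0.0693). Of 16 genes that hypoxia induces, 4 rose and 2 fell, with a median of -0.02. The glucose transporter gene Slc2a3 (1.43 ± 0.07, adjusted p = 3.18e-08), the stress-response gene Ndrg1 (0.88 ± 0.10, adjusted p = 7.90e-05) and the collagen prolyl hydroxylase gene P4ha1 (0.54 ± 0.09, adjusted p = 0.00183) were higher in Treg, as was Bnip3 (0.38). P4ha2 (-1.0 ± 0.08, adjusted p = 4.24e-06) and Pdk1 (-0.84, adjusted p = 0.00368), whose kinase inhibits pyruvate dehydrogenase, were lower. Of the other sets of these genes, 2 of Slc2a3 (0.09 and -0.04), 1 of Ndrg1 (-0.09) and that of P4ha1 (0.00) did not pass. Vegfa (-0.03, adjusted p = 0.948), Ldha (0.00, adjusted p = 0.995) and Slc2a1 (0.43, adjusted p = 0.196) did not pass either.

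Of 9 relatives of Pdlim4, 0 rose and 2 fell, with a median of -0.08: Pdlim1 (-0.72 ± 0.11, adjusted p = 0.00121), whose 2 other probe sets did not pass (-0.10 and -0.24), and Pdlim5 (-0.45 ± 0.11, adjusted p = 0.0241). Pdlim5 did not pass when B6.H2g7 Tconv replicate 1 or 2, B6.H2g7 Treg replicate 2 or 3, NOD Tconv replicate 1 or NOD Treg replicate 2 was omitted (adjusted p up to 0.0716), and 1 of its 6 other sets passed (-0.53). Lrrc75a, the paralog of Lrrc75b, was higher in Treg by 0.60 ± 0.12 (adjusted p = 0.01), from a dim Tconv level of 5.24 and 5.20 in the 2 strains. Of 19 glycosaminoglycan enzymes related to Pxylp1, 1 rose and 2 fell, with a median of 0.00. Chsy1, a chondroitin synthase gene, was 2.0-fold higher (1.0 ± 0.13, adjusted p = 2.96e-04). The heparan sulfate sulfotransferase gene Hs2st1 (-0.39, adjusted p = 0.0318) and Csgalnact1 (-0.41, adjusted p = 0.0494), which starts chondroitin chains, had adjusted p of up to 0.0872 and 0.209 over all alternatives. Hs2st1 passed only when the omitted array was B6.H2g7 Tconv replicate 3, B6.H2g7 Treg replicate 2, NOD Tconv replicate 1 or NOD Treg replicate 3. Csgalnact1 passed only when it was B6.H2g7 Tconv replicate 3, B6.H2g7 Treg replicate 2, NOD Tconv replicate 3 or NOD Treg replicate 2. None of the 3 other Hs2st1 sets (-0.33 to -0.10) and not the other Csgalnact1 set (-0.03) passed. The B6.H2g7 Treg mean of Csgalnact1, 4.91, was dim, so the size of its difference is uncertain. Fam20b, the kinase gene that adds the phosphate Pxylp1 removes, was at 0.00 (adjusted p = 0.999). Of 8 genes of VIP and PACAP signalling, only Ramp3, a receptor-modifying protein gene, was called (-0.63 ± 0.07, adjusted p = 1.34e-04). Vipr2, the second VIP receptor gene, was at -0.01 (adjusted p = 0.99), and the median was -0.04. Bnip3, Pdk1 and Atp8a1 and the relatives that did not pass were named after their values were seen.

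**Figure D4:**
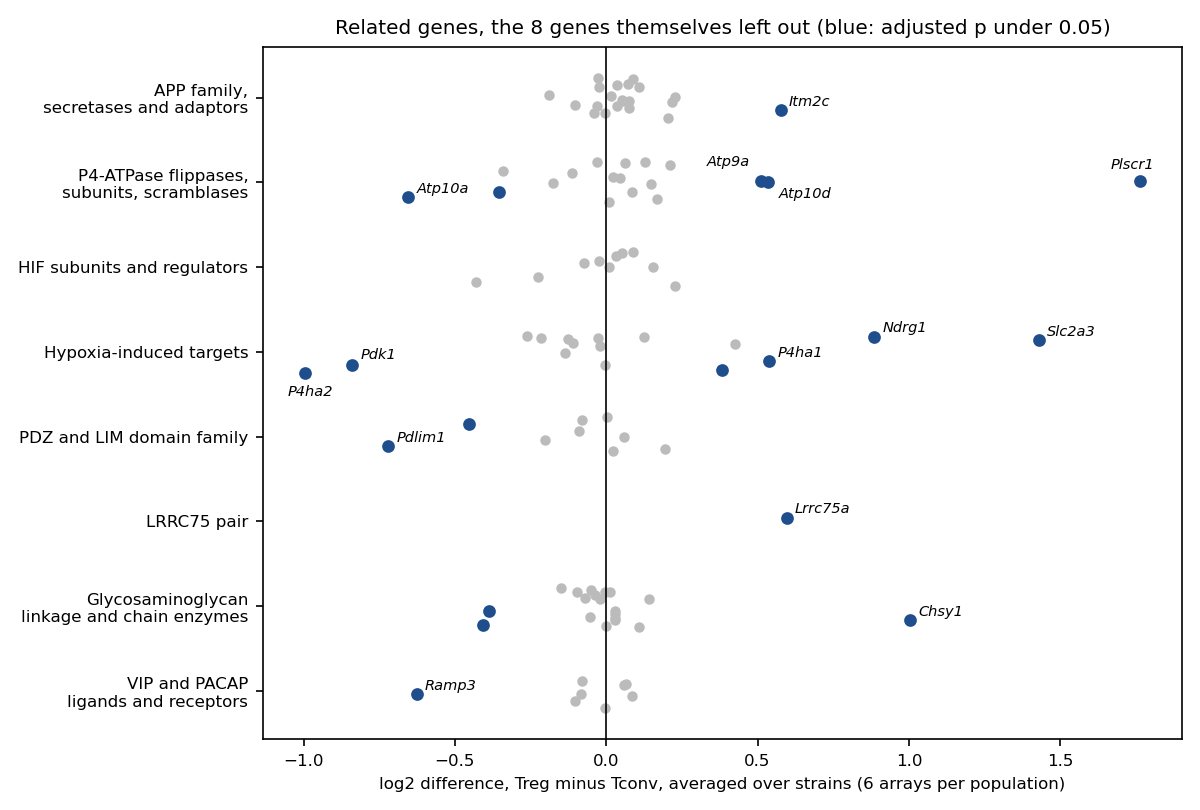
Log2 difference, Treg minus Tconv, averaged over strains (x axis; 6 arrays per population), for 102 relatives of the 8 genes in 8 lists (y axis; vertical scatter within a list has no meaning); blue points passed at an adjusted p under 0.05, named where the difference is above 0.5 in size. Called genes fall on both sides of 0, from P4ha2 at -1.0 to Plscr1 at 1.76.

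Among the relatives of the 8 genes, 5 of 102 were higher and 3 lower in NOD over both populations (limma, adjusted over all probe sets; 5.80% of all genes were called). Pdk1 was lower in NOD, with a log2 difference of -2.50 ± 0.15 (SE, 6 arrays per strain, adjusted p = 3.05e-07) and mean levels of 12.89 and 11.83 in B6.H2g7 Tconv and Treg against 10.18 and 9.56 in NOD. Pdlim1 (-1.0 ± 0.11, adjusted p = 8.36e-05) and Atp10a (-0.80 ± 0.12, adjusted p = 0.0012) were lower too. Higher in NOD were Atp9a (1.28 ± 0.10, adjusted p = 2.13e-06), Ramp1 (0.99 ± 0.10, adjusted p = 2.37e-05), the sorting receptor gene Sorl1 (0.77 ± 0.07, adjusted p = 2.01e-05), Csgalnact1 (0.55 ± 0.11, adjusted p = 0.00788) and Ndrg1 (0.50 ± 0.10, adjusted p = 0.00814). For these strain differences each relative was read from 1 probe set, and neither its other sets nor the alternatives were examined. Csgalnact1 was dim in B6.H2g7 Treg (4.91), so the size of its difference is uncertain. All these genes were named after their values were seen.

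Epas1 is well known from endothelial cells and App from platelets, so markers of other cells were read beside them. Of 46 measured markers in 8 lists (CD8 T, B, NK and dendritic cells, monocytes and macrophages, neutrophils, platelets and erythroid cells, endothelial and stromal cells), 0 passed the limma test between Treg and Tconv, beside 7.50% of all genes, with 1 at an unadjusted p under 0.05, and 9 were dim in all groups. The summed intensity of the 9 endothelial and stromal markers was 564 to 626 in B6.H2g7 Tconv, 576 to 649 in B6.H2g7 Treg, 616 to 628 in NOD Tconv and 597 to 640 in NOD Treg, with Cdh5, Tek and Vwf dim in all groups. That of the 8 monocyte and macrophage markers was 621 to 821, 670 to 801, 738 to 779 and 691 to 785 in the same order, with Itgam and C1qb dim. That of the 5 platelet and erythroid markers was 423 to 426, 411 to 461, 445 to 449 and 438 to 463, with Ppbp dim. These ranges overlapped between Treg and Tconv within each strain, as did those of the CD8 T cell, B cell, NK cell and neutrophil markers. The NK cell list did not hold Klrd1, the killer lectin-like receptor gene named above as a neighbour of Atp8b4. Klrd1 was lower in Treg, with log2 differences of -4.28 in B6.H2g7 and -3.68 in NOD. The 5 dendritic cell markers overlapped in B6.H2g7 (535 to 602 in Tconv, 562 to 577 in Treg) but not in NOD, where their sum was 568 to 583 in Tconv and 532 to 564 in Treg. Many of these markers were at low levels, where a small difference in the number of other cells cannot be seen. The part of other cells in the levels of the 8 genes was not tested.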

How the data were processed

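RNA of sorted splenic T cells was measured on Affymetrix expression arrays, 12 in 4 groups of 3. The deposited intensity values are those the authors obtained by RMA, which the submitters' processing notes and the series design name. Its program is not given in the sources used here. Values are on a linear scale, so log2 was taken, with no further normalization, pseudocount or filter, and 64 control probe sets were left out. The files hold no detection calls and no counts, so the number of arrays limits the precision.

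Tests used limma 3.58.1 in R 4.3.3 (lmFit with 1 mean per group over all 12 arrays, eBayes), two-sided, with Benjamini-Hochberg adjustment over 45037 probe sets and a threshold of 0.05. Relatives were taken by their brightest probe set naming 1 gene. The fit was tested on simulated data. Replicates are separate pools of mice, per the series design.

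Named are all 8 genes, the 2 nearest genes of each, and up to 4 called genes of smallest p per list. The members and lists were chosen with earlier results of these data known. The replicate numbers did not pair all groups. Alternatives were a replicate block, array weights, an intensity trend, 2 further scalings, a filter on dim probe sets, 1 probe set per gene, the actin difference as a covariate, the authors' averaging of linear intensities and leaving out arrays.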

Additional observations from a re-analysis of the deposited data

How the results depend on the processing

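The median difference between Treg and Tconv of the 8 genes (-2.95 over the 16 values of both strains) and the median of its difference between strains (0.06) moved by less than the spread between replicates under all 18 alternatives run for them, to between -2.99 and -2.88 and between -0.05 and 0.23. No value turned its direction where it was called. Counts of called probe sets moved more. For NOD against B6.H2g7, 2475 probe sets became 3920 with array weights, 3880 with the actin covariate and 1111 with 1 probe set per gene, where fewer features were tested. For Treg against Tconv, 2632 (1552 higher, 1080 lower) became 4796 (2404 and 2392) with array weights, 4138 (1848 lower) with the actin covariate and 1525 (889 and 636) with 1 probe set per gene; with the replicate block 1763 were lower. The cause of these shifts was not tested. Of the 16 probe sets of the 8 genes, 2 were called for strain with the replicate block and with the actin covariate, where Atp8b4 also passed (adjusted p = 0.00371 and 0.00226), and 0 to 2 without 1 array. Arrays of the same replicate number deviated together (r over 0.1 in every pair) in NOD Tconv, NOD Treg and B6.H2g7 Treg, at 0.28 to 0.67, but not in B6.H2g7 Tconv, whose lowest value was -0.21, so the number is not used as a pairing; the block changed no other call of the 8 genes. Scaling each array again moved the median of all probe sets by at most 0.01. Dim levels limit the values of Lrrc75b and Pdlim4 in Treg.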
